A study of Mus musculus with 15 samples.

Results

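Nos2 encodes inducible nitric oxide synthase and lies on the plus strand of mouse chromosome 11, at about 78.734 to 78.774 Mb of build mm9. The locus is described here through its DNase I hotspots, stretches of chromatin that the enzyme digests readily and that the authors listed library by library. Every hotspot overlapping chr11:78690000-78800000 in any of the 15 lists was taken, and those that overlapped by 1 bp or more in any lists were joined into elements. This gave 28 elements from 160 hotspots, of 324185 elements from 1124658 hotspots in the whole genome. Elements are named by the distance of their middle from the given start of Nos2. The one at -44 kb, at 78689244 to 78690267, crosses the left edge of the window and was kept.

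Macrophages grown from the bone marrow of C57BL/6J mice were profiled by DNase-seq after treatment with 10 ng/ml lipopolysaccharide (LPS, a cell wall molecule of Gram-negative bacteria) for 0, 3 or 8 h. The design has 2 libraries of wild type (WT), 1 of a littermate control and 2 of the genotype labelled Ikzf KO at each time, named KO below. The 3 times of one genotype and replicate number are called a series, and controls are the WT and the littermate libraries. Ikaros, a DNA-binding zinc finger protein, is named in the title of the series, and which allele the KO and the littermates carry is not stated in the labels. WT replicate 2 was labelled with 100 U of DNase and the other series with 80 U. The labels do not tie replicates to separate animals or cultures. The p-values therefore cover no more than the variation among these libraries, and that variation may be technical. Marker loci of macrophages were not checked, and Ikzf1 itself cannot be checked from hotspot positions without an annotation of mm9.

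Nitric oxide synthase turns arginine into citrulline and nitric oxide, a gas that kills microbes and acts as a signal. The inducible form is nearly absent from resting macrophages and is made in large amounts after LPS, which is sensed by Toll-like receptor 4. Its transcription in mouse macrophages is known to depend on NF-kB together with interferon-driven factors of the STAT and IRF families.

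The lists differed in ways that touch every value below. They held 15659 to 132279 hotspots. The WT lists ended at Z-scores (the authors' score of each hotspot) of 7.98 to 10.6, those of the littermate at 3.65 to 4.54 and those of the KO at 3.4 to 3.66. The 6 control libraries at 0 and 3 h stood apart: their 15659th strongest hotspot had a Z-score of 8.48 to 11.4, against 25.1 to 40.01 in the other 9 libraries. If all libraries were scaled to one total, steps in the deposited densities put the relative depth of KO libraries at 0.741 to 1 and of controls at 0.525 to 0.947. At 3 h WT replicate 1, at 0.947, was above both KO libraries (0.848 and 0.826), and at 0 and 8 h both KO libraries were above all controls. At 8 h the Z-score at that rank was 25.8 to 27.3 in the controls and 35.6 and 40.01 in the KO. Within the KO that Z-score was 25.9 and 25.1 before LPS, then 28.5 and 28.7 after 3 h, below both 8 h values. KO depth stood at 0.745 and 0.741 before LPS, against 0.848 and 0.826 after 3 h, then 0.85 and 1 after 8 h. Control depth before LPS was 0.596 to 0.644, below its 0.683 to 0.712 after 8 h. Signal strength by this measure therefore moves with genotype at every time, and with LPS in controls and KO alike. Relative depth moves with genotype at 0 and 8 h, with LPS in the KO, and from 0 to 8 h in the controls. Their part in the results was not tested. In such bulk libraries, more cells with an accessible site and more digestion per cell cannot be told apart.

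Counts of hotspots in the window varied with LPS, genotype and list length. The WT lists as deposited held 2 and 3 hotspots of the window at 0 h, 4 and 5 at 3 h and then 10 and 12 after 8 h. The littermate lists held 2, 5 and 15 at these times. The KO lists held 12 and 10 at 0 h, 25 and 22 at 3 h and then 17 and 16 after 8 h. Every KO list thus held more hotspots than every control list of its time, and every KO list was also longer than every control list of its time. In lists shortened to 15659 hotspots each, the length of the shortest list, WT held 2 and 2 of them at 0 h, 4 and 4 at 3 h and then 4 and 5 after 8 h. The littermate held 1, 4 and 4, and the KO 2 and 2, 1 and 3, then 4 and 3. At equal length the control counts thus differed between 0 and 3 h and hardly between 3 and 8 h, and the KO counts were not above those of the controls at 3 or 8 h. Of the 28 elements 1 (3.57%) was in all 15 lists, close to the 3.22% of all elements of the genome, and 8 (28.6%) were in a single list, against 61.9%. The window's elements were 868.5 bp long at the median, against 419 bp over all elements.

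The hotspot at the gene's start (chr11:78732896-78734855), where the promoter lies, was in no control list at 0 h. At 3 h its highest tag density, the authors' signal, was 9.53 in WT replicate 2 and 6.77 in the littermate, and WT replicate 1 had no hotspot there. At 8 h the density was 20.7 and 24.0 in WT and 24.0 in the littermate. In the KO it was listed at 0 h with 2.55 and 4.16, and it had 21.8 and 23.0 at 3 h and then 23.7 and 24.0 after 8 h. The 8 h values of KO and control libraries overlapped, whereas at 3 h both KO values were above all 3 control libraries. The 0 h hotspots of the KO were weak ones, with Z-scores of 4.35 and 5.61, below the level at which both WT lists of 0 h ended (8.29 and 9.29), and the first was also below the end of the littermate list (4.38). The absence of the hotspot from control lists at 0 h can therefore not be set against its presence in the KO.

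Densities of different libraries need not share a scale, so elements were also compared by rank. Each list was shortened to its 15659 strongest hotspots by Z-score, the length of the shortest list. The rank score of an element is 100 for the strongest hotspot of the list, falls evenly to near 0 at its end, and is 0 when the element is absent. Of the 28 elements, 4 were in at least 2 shortened lists and were tested: those at -33 kb, -4 kb, the start and +64 kb. The other 24 did not enter the tests of all 15 libraries.

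By rank, the start hotspot scored 22.2 and 4.42 in WT and 23.3 in the littermate at 8 h, 0 in the same 3 series at 0 h, and 0, 14.6 and 5.53 at 3 h. In the KO it scored 0.153 in replicate 2 at 3 h and 0 in the other 5 libraries, where it lay beyond the end of the shortened list. Its deposited ranks at 8 h were 12185, 14968 and 12018 in the controls and 15960 and 17270 in the KO. So the hotspot stood slightly lower in the Z-score ranking of the KO lists, while its tag densities overlapped. The KO minus control difference over the 3 times was -7.75 (exact permutation test, adjusted p = 0.162), and the 8 h minus 0 h difference over all series was 9.97 (exact permutation test, adjusted p = 0.401). Neither passed the threshold of 0.05. In the KO the score cannot show a change with LPS, since the element was at or past the end of the shortened lists at all times.

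Upstream of the gene, the element at -33 kb (chr11:78699796-78701634) was in all 3 control lists at 3 and at 8 h and in none at 0 h. Its density was 7.52, 11.9 and 8.13 at 3 h and then 20.4, 25.7 and 26.98 after 8 h in WT replicates 1 and 2 and the littermate. In the KO it was listed at every time, with 6.68 and 8.32 at 0 h, 10.6 and 14.9 at 3 h and then 21.2 and 21.3 after 8 h. Densities of KO and control libraries overlapped at both 3 h and 8 h. Its rank score was 25.0, 46.9 and 41.8 in the controls at 3 h and then 11.3, 23.3 and 45.6 after 8 h. The KO scores were 0 at 0 and 3 h, where the element lay past the end of the shortened lists, and 0.658 and 3.60 at 8 h. They were below every control score of 3 and 8 h.

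Over all 15 libraries the -33 kb element scored 0.709 ± 1.44 in the KO (SD, n = 6) and 21.6 ± 19.8 in the controls (SD, n = 9), a difference of -20.8 that did not pass (exact permutation test, p = 0.020, adjusted p = 0.0682). Against 0 h, its score was 16.9 higher at 8 h (exact permutation test, p = 0.0278, adjusted p = 0.191), with 5 of 5 series higher. At 3 h the difference was 22.8 (exact permutation test, adjusted p = 0.481), with the 3 control series higher and both KO series at 0 at both times. The 0 of the KO is set by the end of the shortened lists and is no measure of its change. In KO lists of 111553 hotspots the element scored 69.99 and 64.4 before LPS against 70.97 and 81.7 after 3 h. With KO and control hotspots ranked by their highest density in place of the Z-score, the KO minus control difference was -25.3 (exact permutation test, adjusted p = 0.0464). The KO scores were again at or near the end of the lists, from 0 to 9.73, and 8.53% of tested elements were called lower in the KO. Against the littermate series alone, in lists of 52400 hotspots, the difference was -5.27. There the KO scored 36.1 and 24.3 at 0 h against 0 in the littermate, and below the littermate at 3 and 8 h.

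The other upstream elements differed in when they were listed. The element at -4 kb (chr11:78728782-78730625), the nearest one upstream of the start, was in 13 lists, with WT replicate 1 and the littermate at 0 h the exceptions. Its density was 13.7, 15.3 and 16.3 in the 8 h controls and 17.6 and 17.8 in the 8 h KO libraries, so that both KO values were above the controls. Its KO minus control difference in rank score was -2.80 (exact permutation test, adjusted p = 0.634). That score could show little, since the element was in 2 shortened lists, 1 of the controls at 3 h and 1 at 8 h. In the KO it ranked 18893 to 23640, past the end of the shortened lists at all times. The element at -31 kb (chr11:78702211-78703620) was in all 3 control lists at 8 h, in both KO lists at 3 and 8 h, and in no other list. Its density was 13.0, 13.9 and 15.0 in the 8 h controls, 16.5 and 11.5 in the KO at 3 h and 13.7 and 16.4 in the KO at 8 h. These ranges overlapped. The element at -44 kb had the same pattern plus 1 littermate hotspot at 3 h. The element at -23 kb was listed in the KO alone, in 1, 2 and 2 of its 2 lists at 0, 3 and 8 h. Its Z-scores there ran from 4.01 to 6.48, below the level at which each WT list ended (7.98 to 10.6). Its ranks, 64723 to 97191, lay past the end of the littermate lists of 0 and 3 h (64262 and 52400) and within that of 8 h (114427). Its absence from WT is therefore no measure of a difference.

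**Figure D1:**
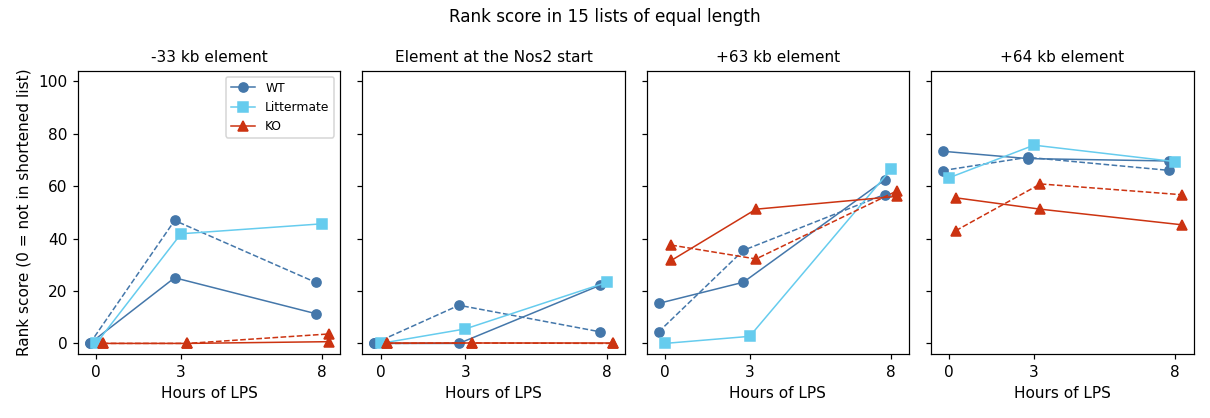
Rank score (0 to 100, lists of 15659 hotspots) on the y axis against hours of LPS on the x axis, 1 panel each for the elements at -33 kb, the start, +63 kb and +64 kb, with 1 point per library coloured by genotype. At -33 kb the KO points stay between 0 and 3.60, at +63 kb the 8 h points of all series lie between 56.1 and 66.4, and at +64 kb all control points lie above all KO points.

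Inside the gene, the element at +30 kb (chr11:78763463-78764639) was in the 3 control lists of 8 h and in no earlier one, with densities of 17.7, 14.6 and 15.7. In the KO it had 2.86 and 3.52 at 0 h, 7.84 and 9.76 at 3 h and then 22.3 and 27.5 after 8 h. At 8 h both KO libraries were above all 3 controls. The elements at +4 kb (chr11:78735657-78739405) and +36 kb (chr11:78769357-78770784) were in all 6 KO lists, and in 2 and 3 control lists, all at 8 h. The +4 kb element, just downstream of the start, had densities of 7.32 and 7.04 at 0 h, 11.5 and 15.8 at 3 h and then 14.8 and 17.3 after 8 h in the KO. In the controls it was absent from WT replicate 1 at 8 h and had 7.64 in WT replicate 2 and 10.99 in the littermate. The +36 kb element had KO densities of 7.0 and 9.92 at 0 h against 8.93 and 9.25 after 8 h, which overlapped, and control densities of 7.69, 7.98 and 8.33 at 8 h.

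Presence at 0 h differed between the deposited lists. Of the 11 elements in any 0 h list, 6 (54.5%) were in both KO lists and in no control list, at -33, 0, +4, +30, +36 and +47 kb; over the genome it was 21.3% of elements listed at 0 h. For those at -33, +4 and +36 kb the KO Z-scores ran from 10.9 to 16.04, above the level at which each of the 3 control lists of 0 h ended. By rank these KO hotspots lay at 27151 to 39691, past the end of both WT lists of 0 h (17237 and 21377) and within the length of the littermate list (64262). At the start and at +30 kb the KO Z-scores were below the end of both WT lists. Absence from WT at 0 h is therefore no measure of a difference at these 5 elements. The element at +47 kb, in the 3' flank of the gene (chr11:78780643-78781511), was the 1 element of 28 in all 6 KO lists and in no control list, a pattern held by 1.78% of elements in the genome. Its Z-scores ran from 3.83 to 9.89, a range that includes the levels at which the WT lists of 0 and 8 h and the littermate lists of 0 and 3 h ended.

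After LPS, 7 of the 13 elements listed in the controls at 0 or 8 h (53.8%) were in each of the 3 control lists of 8 h but in no 0 h one, against 7.56% of such elements over the genome. They lie at -44, -33, -31, 0, +30, +36 and +53 kb. In the lists shortened to 15659 hotspots, 2 of 4 had this pattern, at -33 kb and the start, with 6.07% over the genome. Of the 16 listed in the KO at 0 or 8 h, 2 (12.5%), at -44 and -31 kb, were in both lists at 8 h and in neither at 0 h, with 5.94% over the genome. The control lists held 17237, 21377 and 64262 hotspots at 0 h and 48084, 51834 and 114427 at 8 h, and the KO lists 111553 and 112826 at 0 h against 125251 and 132279 after 8 h. The part of this growth of the control lists in the count was not tested, and the count in shortened lists is free of it.

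In long lists the KO held more of the gene at 3 h than at either other time. With the 6 KO lists shortened to 111553 hotspots each, the window held 12 and 10 hotspots at 0 h, 25 and 22 at 3 h and then 17 and 15 after 8 h. Hotspots overlapping Nos2 itself numbered 6 and 4, then 15 and 12, then 6 and 4. Their full lengths came to 3223 and 3105 bp at 0 h, 13378 and 12080 bp at 3 h, and 6488 and 5753 bp at 8 h. These lengths include the parts of hotspots that reach past the start or the end of the gene. The 3 h values did not overlap those of 0 or 8 h. Among the strongest 15659 hotspots this was not so. By the same full lengths KO replicate 1 had 0, 0 and 1020 bp at the 3 times, and replicate 2 had 0, 1935 and 0 bp. The 1935 bp are the start hotspot, which ran from -1.080 to 0.855 kb of the given start of Nos2. The difference at 3 h thus lies in weaker hotspots. Relative depth was also higher in the KO at 3 h than before LPS, and its part was not tested. The gene body held 3 elements, at +15, +34 and +39 kb, that were in both KO lists at 3 h and in no other list, 10.7% of the 28 against 0.415% of all elements. Their Z-scores ran from 4.06 to 10.2. Their ranks, 47456 to 98206, lay past the end of both WT lists of 3 h (15659 and 20077). Absence from WT at 3 h is therefore no measure of a difference at these elements.

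Of the 26 elements listed in the KO at 0 or 3 h, 7 (26.9%) were in both lists at 3 h and in neither at 0 h, against 4.12% over the genome. Both 3 h lists held at least 9 more hotspots of the window (by their midpoints) than both 0 h lists. Of 22933 windows of 110 kb with a KO hotspot, 11 (0.0480%) had a gap this large, the median gap being -1; the gap of 9 is that of the Nos2 window itself, so the share is a description. In lists of 52400 hotspots, the full lengths of hotspots overlapping Nos2 came to 0, 528 and 3209 bp in the littermate series at 0, 3 and 8 h. In the KO they came to 1990 and 1762 bp, then 8047 and 7770 bp, then 5414 and 5753 bp. The greatest length lay at 3 h in both KO series and at 8 h in the littermate series.

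**Figure D2:**
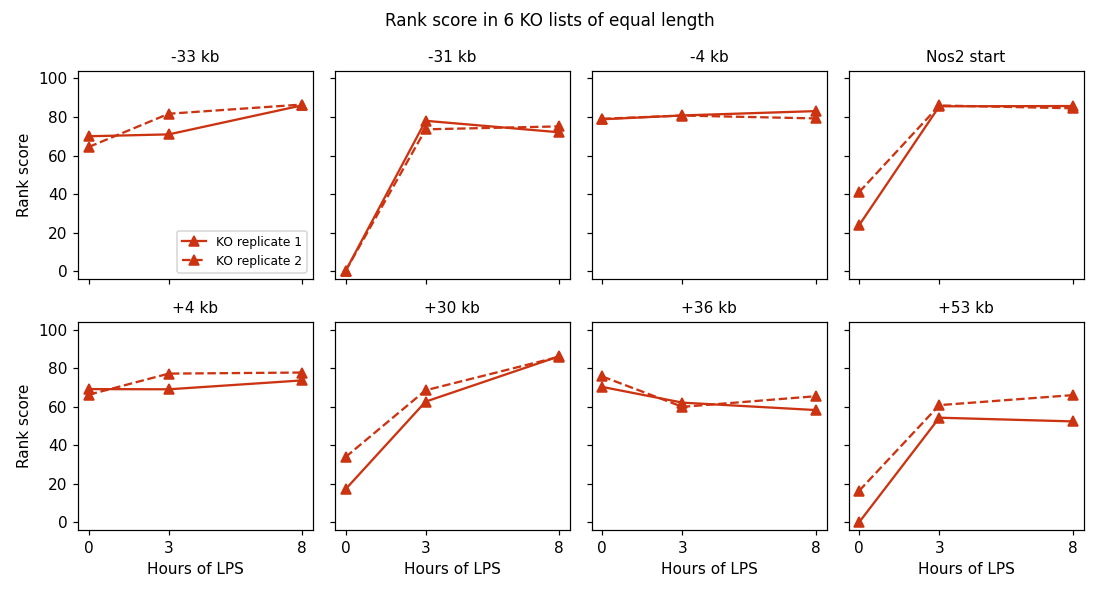
Rank score (0 to 100, KO lists of 111553 hotspots) on the y axis against hours of LPS on the x axis for 8 elements, with 1 line per KO replicate. The start, +30 kb and -31 kb elements have means of 32.5, 25.4 and 0 at 0 h and of 85.1, 86.0 and 73.6 at 8 h, and +36 kb goes from 72.9 to 61.8.

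Within these longer KO lists the elements followed different courses, given as means of 2 libraries. The start scored 32.5 at 0 h, 85.8 at 3 h and 85.1 at 8 h. The -31 kb element likewise was near its 8 h value by 3 h, at 0, 75.8 and 73.6. The +30 kb element was intermediate at 3 h, at 25.4, 65.6 and 86.0, and so was -44 kb, at 0, 48.4 and 69.6. The -4 kb element varied little, at 79.0, 80.8 and 81.2. The +36 kb element was highest at 0 h, at 72.9, against 61.0 and 61.8. With 2 libraries a time, an exact permutation test between 2 times cannot go below p = 0.333.

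Downstream of Nos2, the only element present in all 15 lists spanned chr11:78795864-78799365. The next gene after Nos2 is Lgals9, which encodes the lectin galectin-9, by gene order in the RefSeq table of assembly GRCm38.p6; whether the element lies in it was not analysed here. It is long because 1 hotspot of KO replicate 1 at 3 h, 3368 bp wide, joins what other libraries list as separate hotspots. Without that list it splits into an element at +63 kb (chr11:78795931-78797172) and one at +64 kb (chr11:78797317-78799365). This split was made after the data were seen.

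The joined element was the 1 of the 4 tested elements that differed between genotypes. Its rank score was 54.2 ± 6.33 in the KO (SD, n = 6) and 69.4 ± 3.86 in the controls (SD, n = 9), a difference of -15.2 (exact permutation test, p = 0.001, the smallest possible, adjusted p = 0.0110). The KO libraries ranged from 43.0 to 60.8 and the controls from 63.2 to 75.6, without overlap. Its tag density ran the other way at 0 and 3 h: it averaged 24.6 in the KO against 9.28 in the controls at 0 h, 36.6 against 14.8 at 3 h, and 47.9 against 49.5 after 8 h. Over the genome, 10.0% of the 23331 tested elements were called lower in the KO and 15.2% higher, and 1 lower and 0 higher calls among 4 elements are too few to set against these shares. The call rests on ranking by Z-score. It also treats the 3 times of a series as separate libraries, and permuting the 5 whole series cannot give an exact permutation p below 0.1. Ranked by highest density, the difference was -1.56 (exact permutation test, adjusted p = 0.792), and with any 1 series left out, which leaves 216 or 64 arrangements, the adjusted p (exact permutation test) was 0.0503 to 0.122.

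The rank scores of the split elements differed in opposite directions. At +64 kb the KO score was 17.3 lower than that of the controls (exact permutation test, adjusted p = 0.0110). This test followed a split made after the data were seen and also treats the 3 times of a series as separate libraries. Ranking by density, whole series permuted and series left out were not run for the split elements. The controls scored 73.3, 65.95 and 63.2 at 0 h, 70.5, 71.0 and 75.6 at 3 h and then 69.6, 66.01 and 69.3 after 8 h, a range of 63.2 to 75.6 over all times. The KO scored 55.6 and 43.0 at 0 h, 51.2 (the joined hotspot) and 60.8 at 3 h and then 45.3 and 56.7 after 8 h. The density at +64 kb was 10.3, 9.57 and 7.91 in the controls before LPS against 35.5, 35.8 and 38.97 after 8 h, so the control density was higher at 8 h while its rank score was not. In the KO the density was 24.2 and 22.4 before LPS against 36.6 and 39.4 after 8 h, above all controls at 0 h and overlapping them at 8 h. At +63 kb the KO score was 14.9 higher than that of the controls, which did not pass (exact permutation test, p = 0.046, adjusted p = 0.121).

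Between 0 and 8 h the +63 kb element differed more than the -33 kb, start and +64 kb elements. The controls scored 15.3, 4.39 and 0 before LPS, 23.3, 35.5 and 2.70 at 3 h and then 62.3, 56.8 and 66.4 after 8 h. The KO libraries scored 31.7 and 37.5 before LPS, 51.2 (joined) and 32.2 at 3 h and then 56.1 and 58.2 after 8 h. All 5 libraries at 8 h were above all 5 at 0 h, and both KO libraries at 0 h were above the 3 controls. The mean was 60.0 at 8 h and 17.8 at 0 h, a difference of 42.2 (exact permutation test, p = 0.0278, the smallest possible, adjusted p = 0.191). Its density went from 7.96 and 8.10 in WT and 6.03 in the littermate at 0 h to 53.5, 45.1 and 50.0 at 8 h, and in the KO from 22.3 and 25.0 to 47.2 and 48.6.

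Across the genome, the test of 8 h against 0 h called 0 of 21640 elements (0%), with 3150 (14.6%) at an unadjusted p under 0.05. The test of 3 h against 0 h called 0 of 21497 (0%), with 2509 (11.7%) at an unadjusted p under 0.05. With 72 arrangements the exact permutation p cannot go below 0.0278. The joined element differed by 3.65 at 8 h (exact permutation test, adjusted p = 0.536) and by 5.63 at 3 h. The change from 0 to 8 h of the joined element averaged 7.90 in the KO series and 0.822 in the control series (exact permutation test over 5 series, p = 0.4). Such an exact test has 10 arrangements and cannot go below p = 0.1. At -33 kb, -4 kb and the start the KO scores are held at or near 0 by the end of the shortened lists. The same exact permutation test over 5 series gave p = 0.2 for 8 h at -33 kb and at the start. It cannot compare the LPS change between genotypes there, since the end of the lists leaves the KO change unmeasured.

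At 8 h the lists could be compared at 48084 hotspots each, where 10 of the elements had scores. Controls and KO still differed in the Z-score at equal rank, given above. Relative depth was 0.683 to 0.712 in these controls and 0.85 and 1 in the KO, and the part of either in the differences was not tested. In 6 of them both KO libraries scored below all 3 controls, against 26.5% of elements over the genome, and in 3 both scored above, against 34.3%. The lower ones were the start (mean 65.5 in the KO and 72.9 in the controls), -33 kb (68.1 and 76.1), -31 kb (38.7 and 50.8), -4 kb (56.3 and 66.9), +53 kb (10.5 and 32) and the joined +63 and +64 kb element (86.1 and 89.7). The higher ones were +4 kb (43.5 and 4.58), +30 kb (67.6 and 48.3) and -44 kb (29.4 and 18.7). At +36 kb the scores overlapped. With 2 against 3 libraries an exact permutation test cannot go below p = 0.1, and the smallest adjusted p was 0.230.

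**Figure D3:**
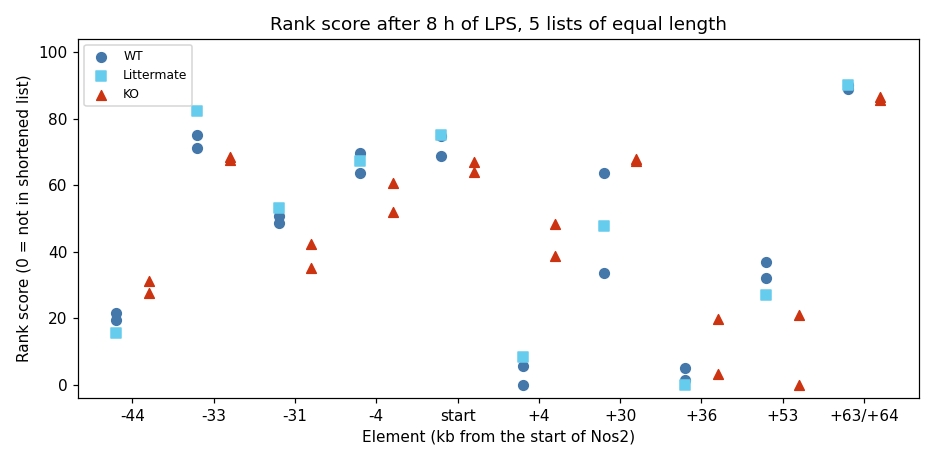
Rank score at 8 h of LPS (0 to 100, lists of 48084 hotspots) on the y axis for 10 elements in order of position on the x axis, 1 point per library coloured by genotype. The KO points lie above the control points at -44, +4 and +30 kb, overlap them at +36 kb and lie below them at the other 6 elements.

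In the 48084 strongest hotspots of each list the gene held 3, 4 and 3 hotspots in the controls and 4 and 4 in the KO. Their full lengths, parts outside the gene included, came to 2097, 2353 and 3209 bp in the controls and 5414 and 5753 bp in the KO, without overlap. The stretch just upstream of the start was a separate hotspot, and so not counted, in both WT lists. In the littermate and KO lists it was part of the start hotspot and was counted. With the littermate series as the only controls and 52400 hotspots a list, the +4 kb element averaged 40.7 in the KO and 5.26 in the littermate, and +36 kb averaged 26.0 and 0. Both were at the smallest exact permutation p of 27 arrangements, p = 0.0370 (adjusted p = 0.1298), as were 18090 of 63405 elements at an unadjusted p under 0.05, and 0 were called.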

How the data were processed

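DNase-seq was measured in 15 libraries of 9 groups, grouped by genotype and hours of LPS from the labels. Coordinates are of mm9, and CASAVA is among the tools, per the submitters' processing notes. Which aligner and caller were used is not given in the sources used here. Names of the deposited littermate and KO lists carry the tag FDR1 and those of the WT lists do not, and no source explains it. The authors deposited 1 hotspot list per library, each called separately. Per the file headers, the columns of a hotspot are the signal (maximum and mean tag density), a score (the Z-score) and a p-value, the last of which was deposited but not used. Depth is unknown: relative depth was taken from the step of the deposited signal (values within 0.05 steps of a whole multiple), assuming libraries scaled to one total, which no source states. No counting interval can be given. Positions are printed as listed, with no statement of whether they start from 0 or 1. Hotspots off chromosomes 1 to 19, X and Y were absent.

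Lists were shortened to 15659 hotspots by Z-score, and elements in at least 2 shortened lists were tested across the genome. KO was permuted within each time (1000 arrangements) and time within each genotype (72 arrangements), two-sided and exact, with Benjamini-Hochberg adjustment over all elements and a threshold of 0.05. The 2 comparisons with 0 h share their 0 h libraries. The named elements are those tested and those nearest the ends of Nos2; others with full values, and the split of the downstream element, were picked after their values were seen. The locus and the rules were chosen with earlier results of these data known. On simulated data for KO against controls (40000 elements, 2000 planted higher and 2000 lower), 87.8% of the higher and 53.4% of the lower ones were called, and 8.34% of calls were false. These shares are for the largest shift and the larger number of planted elements simulated. All simulated lists had the same length and noise, whereas the deposited lists differed in length, so the shares need not hold for them. Alternatives were the list length, the ranking score, presence alone, how elements are formed, the replicate block, each series left out, other control sets and 8 h alone. The promoter motif search was not run, and gene order alone was taken from an annotation. Python 3.11.15, numpy 2.4.6, pandas 2.3.3 and matplotlib 3.10.9 were used.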

Additional observations from a re-analysis of the deposited data

How the results depend on the processing

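For KO against controls, 1 of 4 tested elements of the window and 5876 of 23331 of the genome were called. Lists of 0.5 times the length gave 1 of 1 tested and 3214 of 12244 tested. Presence in the shortened lists gave 0 and 0, as did the littermate series as the only controls, the 8 h libraries alone, and leaving out any 1 series (0 to 0 in the window and 0 to 0 in the genome). These settings other than presence leave fewer arrangements: 27 for the littermate series, 10 for 8 h alone and 216 or 64 with a series left out. Presence in the lists as deposited gave 5 of 20 tested and 33009 of 123503 tested, similar shares; the 5 were at -23, +4, +30, +36 and +47 kb, each in more KO lists. Ranking by highest density, elements formed from shortened lists and elements formed without KO replicate 1 at 3 h (the last chosen after seeing the data) each gave 1 element in the window, of 5, 4 and 5 tested. In the genome they gave 5147 of 23348, 5885 of 23436 and 5887 of 23389. By density the window's call was -33 kb (adjusted exact permutation p = 0.0464) and not the joined +63 and +64 kb element. It was lower in the KO, as were 8.53% of all tested elements that were called by density.

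With the replicate number as a block, KO against controls had 10 arrangements and gave 0 in the window and 0 in the genome; the joined element then had an adjusted exact permutation p of 0.285. The numbers were not shown to pair the libraries, since correlations of replicate differences between times were 0.188, 0.239 and 0.272 in WT and -0.031, -0.029 and 0.159 in KO. The block left the 0 calls of both LPS comparisons at 0.

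Directions turned as follows for KO minus controls. The start element was 3.17 higher in the KO by highest density. By presence in the lists as deposited, in percent of lists, KO minus controls was 33.3 at -33 kb, 22.2 at -4 kb and 44.4 at the start. At -4 kb it was 15.5 in rank score against the littermate series alone. None of these passed the threshold. The call of the joined +63 and +64 kb element was lost under 11 alternatives, with differences of -16.1 to -11.2 when a series was left out. For 8 h and 3 h against 0 h, the window and the genome stayed at 0 calls under 14 alternatives each. Lists hold no read counts, and elements weaker than the end of the shortest list could not be tested across all 15 libraries.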
